A study of Mus musculus with 6 samples.

Results

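The genes described here are those of the glutathione and thioredoxin antioxidant systems, measured in the uterine luminal layer and in blastocysts of mice with and without epithelial *Lif*, the gene of the cytokine leukemia inhibitory factor. Members were chosen by gene symbol alone, namely every glutathione peroxidase (Gpx), glutathione S-transferase (Gst, Mgst), peroxiredoxin (Prdx), superoxide dismutase (Sod), thioredoxin (Txn) and thioredoxin reductase (Txnrd), with *Cat*, *Gclc*, *Gclm*, *Gsr*, *Gss*, *Nqo1*, *Hmox1*, *Srxn1* and *Nfe2l2*. This gave 56 of the 23420 genes in the tables, 51 of them with at least 10 counts summed over the 3 luminal libraries and 50 over the 3 blastocyst libraries. All libraries came from pregnant mice at 8 pm on day 4, shortly before blastocysts attach. The luminal groups were *Lif*-floxed/floxed females given PBS (control), *Lif*-floxed/floxed *Ltf*-Cre/+ females given PBS (*Lif* eKO), and *Lif*-floxed/floxed *Ltf*-Cre/+ females given 20 µg of rLif per head at 10 am and the same again at 6 pm, which was 2 h before collection. The blastocyst groups were embryos flushed from such females, all with the genotype *Lif*-floxed/+ in the labels. Animal ages were not given in the sources used here. The *Ltf* promoter drives Cre in the uterine epithelium, both luminal and glandular, so *Lif* made by the stroma was not targeted, and the floxed allele was present in all 6 groups.

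Glutathione is a tripeptide that cells make in a rate-limiting step by glutamate-cysteine ligase (*Gclc*, *Gclm*) and a second step by glutathione synthetase (*Gss*), and that glutathione reductase (*Gsr*) returns to its reduced form. Peroxidases spend it to remove hydrogen peroxide and lipid peroxides, and the S-transferases, sorted into classes by sequence, join it to reactive lipids and xenobiotics. A parallel system runs from thioredoxin reductases through thioredoxins to peroxiredoxins, superoxide dismutases and catalase handle superoxide and hydrogen peroxide, and the transcription factor Nrf2 (*Nfe2l2*) induces many of these genes through the antioxidant response element.

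Each group was 1 library, made by pooling RNA of several animals, or by pooling blastocysts, so no difference below has a replicate check and no p-value is given. Total counts ranged from 18996158 to 28460465 per library. *Lif* itself had 0, 28 and 0 counts in the luminal libraries labelled control, eKO and rLif-treated eKO (eKO + rLif), so that the counts present are in a library of the deletion. Loss of epithelial *Lif* alone would not give this order. *Lif* made by the stroma was not targeted, and its part in these counts was not tested. On day 4 *Lif* is known mainly as a product of the uterine glands, so its luminal counts are a weak check of these labels. The deletion covers only some of its exons, and counts per gene do not show which exons were read. Luminal libraries are therefore called by their labels, and each direction drawn from them holds for the libraries so labelled. In blastocysts *Lif* had 1447, 1736 and 1250 counts. All 10 luminal epithelial markers checked had at least 10 counts in every luminal library, and so did all 9 stromal markers. Summed epithelial markers were at 5077, 6810 and 5255 CPM (counts per 1000000, TMM-scaled) and summed stromal markers at 743, 1164 and 813 CPM. The 6 trophectoderm and 5 inner cell mass markers were all present in every blastocyst library, at 2837 to 3159 and 1087 to 1249 summed CPM. *Nanog*, *Pou5f1* and *Fgf4*, which define the inner cell mass, were at 0 in every luminal library. The primitive endoderm list had 1197, 1831 and 2656 CPM there, with its marker *Gata4* at 0, and 582 to 616 CPM in blastocysts. *Sox17* alone carried most of the luminal sums, at 1074, 1706 and 2519 CPM. Blastocysts also held 9 of the 10 epithelial markers (7814 to 8323 CPM, *Wnt7a* at 0), which include keratins of the trophectoderm, and 152 to 159 CPM of stromal, 65.6 to 91.9 of gland, 70.5 to 95.8 of endothelial and 3.04 to 4.55 of smooth muscle markers. Single genes carried most of 3 of these sums, *Pdgfra* (123 to 146 CPM) the stromal, *Lif* (64.3 to 88.8 CPM) the gland and *Pecam1* (64.1 to 93 CPM) the endothelial one. The other stromal markers, except *Thy1*, were highest in the control blastocyst library. *Col3a1*, for example, was at 6.4 CPM there, 3.07 in eKO and 1.44 in eKO + rLif. Trophectoderm markers were at 5.64 to 15.6 CPM in the luminal layer.

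A pair of libraries was compared by the log2 ratio of TMM-scaled counts, with an exact 95% Clopper-Pearson interval that covers counting error only. A gene was said to be past the limit, and is called higher or lower below, when that whole interval lay beyond a 2-fold difference. The 3 comparisons in a tissue share their libraries and are given side by side. Where 3 values follow each other they are in the order control, eKO, eKO + rLif, and “over” names the library divided by, so that eKO over control is positive where eKO is higher. TPM, the counts per exon length scaled to the same total in each library, is used wherever genes or tissues are set beside each other.

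The members took a larger part of the transcriptome in the luminal layer than in blastocysts. Their counts made up 2.65%, 3.92% and 3.17% of the 3 luminal libraries and 0.572%, 0.536% and 0.594% of the blastocyst libraries, and their summed levels were 37567, 51637 and 42714 TPM in the luminal layer and 9012, 8582 and 9262 TPM in blastocysts. Which enzyme led differed among the luminal libraries. It was *Gsto1*, an omega class transferase with thioltransferase activity, in the library labelled control, *Gstm1*, a mu class transferase, in the one labelled eKO, and *Gpx2*, the epithelial glutathione peroxidase best known from the gut, in the one labelled eKO + rLif. Peroxidases made up 34.5%, 15.7% and 41.1% of the members' luminal TPM. The S-transferases together, microsomal ones included, made up 45.5%, 73.2% and 41.5%. In the library labelled eKO the weight thus lay on the S-transferases, and in the other luminal libraries it was more even. The blastocyst libraries resembled each other, with peroxidases at 21.1% to 23.5% and S-transferases at 25.1% to 26.9% of the members' TPM.

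**Figure D1:**
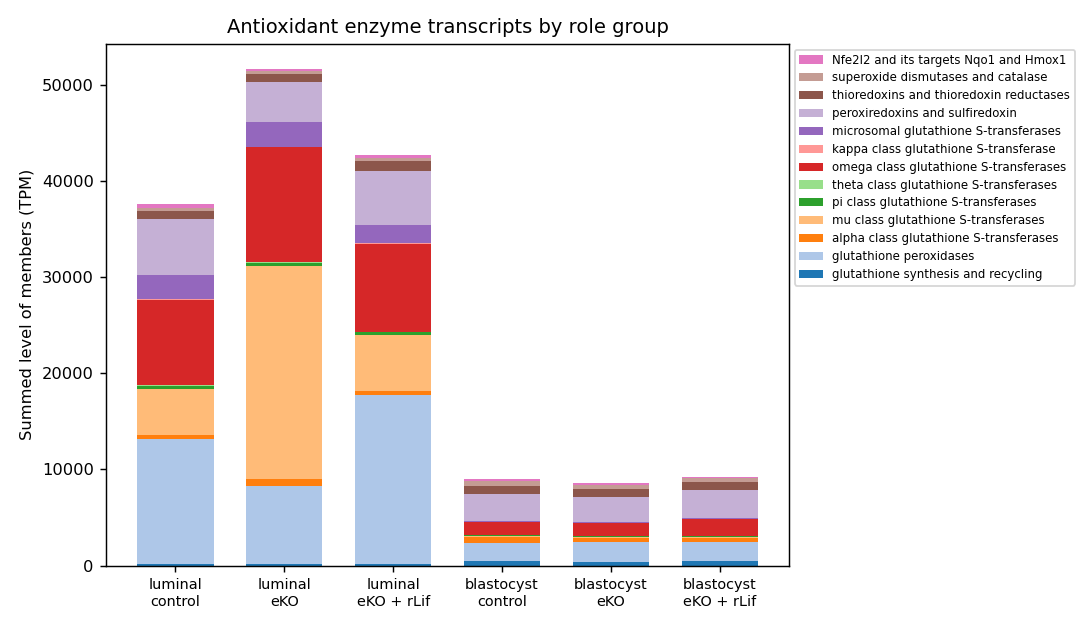
Summed level in TPM (vertical axis, starting at 0) of the 13 role groups of members, stacked, in each of the 6 libraries (bars). The mu class (light orange) takes 4851, 22221 and 5837 TPM in the luminal libraries labelled control, eKO and eKO + rLif, the glutathione peroxidases (light blue) take 12947, 8111 and 17544 TPM, and the blastocyst bars stay between 8582 and 9262 TPM in all.

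In the luminal layer, the library labelled eKO had more transcript of several S-transferases and of extracellular superoxide dismutase than the one labelled control, and less of the peroxidases *Gpx3* and *Gpx2*, of *Gstm5* and of *Hmox1*. In all, 11 of the 51 members tested (21.6%) were past the limit, 7 higher and 4 lower, where 17.2% of all 15694 genes tested were (8.08% higher and 9.15% lower). Against control, the library labelled eKO + rLif had 4 members past the limit (7.84%), *Gpx2* and *Gpx2-ps1* higher and *Gpx3* and *Gstt3* lower, where 9.16% of all genes were (4.12% higher and 5.04% lower). Against the library labelled eKO it had 17 past the limit (33.3%), 6 higher and 11 lower, where 15.6% of all genes were (7.88% higher and 7.77% lower). Scaling by total counts instead also called 17 members, 4 higher and 13 lower, with *Gpx3* and *Prdx3* no longer past the limit and *Gstm4* and *Nqo1* now lower. Over members the median log2 ratio was 0.20 for eKO over control, 0.13 for eKO + rLif over control and -0.09 for eKO + rLif over eKO, and over all genes it was within 0.01 of 0 in each. Abundant genes have narrower intervals. Among genes with at least 1000 counts over the 3 luminal libraries, the share past the limit was 20.5%, 7.69% and 28.2% of 39 members in these 3 comparisons, against 14%, 5.34% and 12.2% of 8318 genes. Fewer cells of a type and less RNA per cell cannot be told apart in pooled tissue of this kind. Across the 3 luminal comparisons, 19 members were past the limit at least once and 32 of those tested never were. The share of all genes past the limit at least once is not given here, so these counts cannot be set against all genes.

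**Figure D2:**
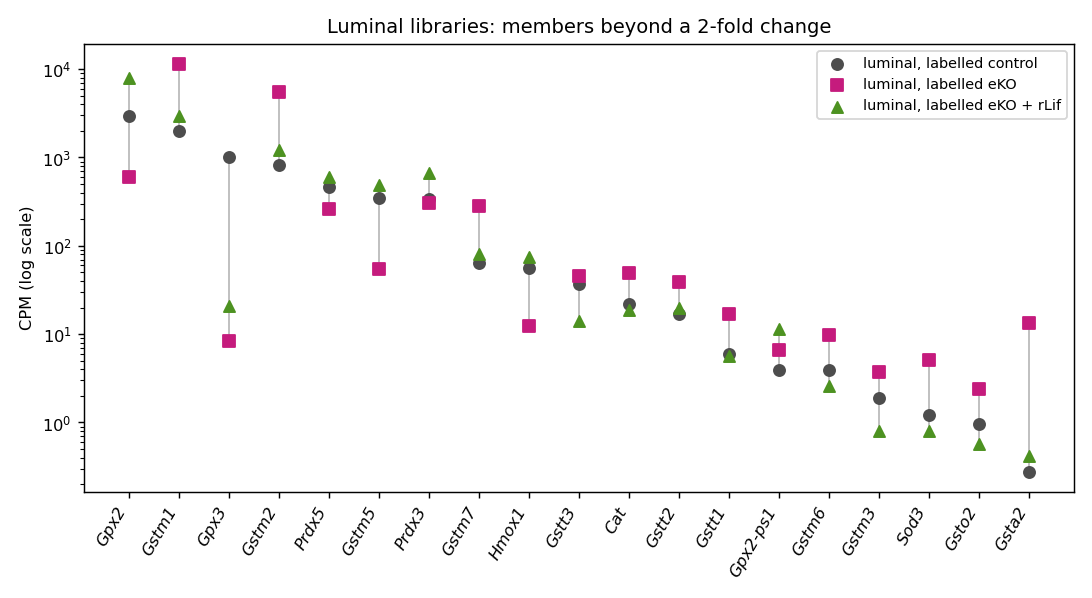
CPM on a log axis (vertical) of the 19 members past the 2-fold limit in at least 1 luminal comparison (horizontal, sorted by the library labelled control), with 1 point per luminal library (circle control, square eKO, triangle eKO + rLif) and a line over their range. The square lies above both other points for *Gstm1*, *Gstm2*, *Gstm7* and *Gsta2* (380 counts against 7 and 11), and below both for *Gpx2*, *Gstm5* and *Hmox1*, while *Gpx3* stands high in the library labelled control only (25746 counts against 240 and 538).

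Among the glutathione peroxidases, *Gpx2* and *Gpx3* differed between luminal libraries, each in its own way. *Gpx2* (chromosome 12, 76792335 to 76795554, minus strand) had 75012, 17161 and 207942 counts, which is 4874, 869 and 10736 TPM. The library labelled eKO was thus the lowest and the one labelled eKO + rLif the highest. The log2 ratio was -2.31 for eKO over control (interval -2.34 to -2.29), 1.43 for eKO + rLif over control and 3.74 for eKO + rLif over eKO (3.72 to 3.76). Its processed copy *Gpx2-ps1* on chromosome 7 had 100, 191 and 300 counts and shares 36.8% of its 50-base windows with other transcripts, *Gpx2* foremost, so its values are uncertain. *Gpx3* (chromosome 11, 54902854 to 54910382, plus strand), the secreted peroxidase, was at 1177, 8.55 and 19.5 TPM. Unlike *Gpx2*, it was low in both eKO libraries, with log2 ratios of -6.93 (interval -7.12 to -6.75) and -5.63 (-5.75 to -5.50) against control. The library labelled eKO + rLif stood above the one labelled eKO by a log2 ratio of 1.31 (1.08 to 1.53), and by 1.20 (0.98 to 1.42), inside the limit, when scaled by total counts. *Gpx2* thus exceeded *Gpx3* in TPM by ratios of 4.14, 102 and 550.

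*Gpx1*, the cytosolic peroxidase of most cells, was steady, with 91246, 128879 and 114773 counts and log2 ratios of 0.31, 0.29 and -0.03 (in the order eKO over control, eKO + rLif over control, eKO + rLif over eKO). It made up 46.7%, 82% and 34.4% of peroxidase TPM, and *Gpx2* made up 37.6%, 10.7% and 61.2%. *Gpx4*, which reduces lipid peroxides in membranes, had 3208, 4211 and 2670 counts, and 34.7% of its windows are shared, mainly with *Gpx4-ps2*. *Gpx8*, a peroxidase of the endoplasmic reticulum, had 8882, 6478 and 10632 counts, with its largest log2 ratio at 0.86 for eKO + rLif over eKO. *Gpx7*, of the same compartment, had 972, 898 and 772 counts. None of these 4 was past the limit in a luminal comparison. *Gpx5* reached 2 counts and *Gpx6* was at 0 throughout.

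The mu class, summed over its genes, stood at 4851, 22221 and 5837 TPM. Its 7 genes lie side by side within 149 kb on chromosome 3, in the order *Gstm5*, *Gstm7*, *Gstm6*, *Gstm3*, *Gstm2*, *Gstm1*, *Gstm4*, with *Gstm5* on the plus strand and the other 6 on the minus strand. *Gstm1* (108012250 to 108017973) had 50244, 325543 and 76881 counts. *Gstm2* (107981702 to 107986436) had 20765, 157859 and 31959 counts. *Gstm7* (107926334 to 107931745) had 1631, 8193 and 2113 counts. For each of these 3 the library labelled eKO stood far above both others, which lay close together. The log2 ratios for eKO over control were 2.51 for *Gstm1* (interval 2.50 to 2.52), 2.74 for *Gstm2* (2.72 to 2.76) and 2.14 for *Gstm7* (2.07 to 2.22). Those for eKO + rLif over eKO were -1.94, -2.16 and -1.81, and those for eKO + rLif over control were 0.57, 0.58 and 0.33, short of the limit. *Gstm1* and *Gstm2* alone held 0.298%, 1.7% and 0.391% of all luminal counts.

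*Gstm5* (107895854 to 107898685), at the end of the cluster and on the other strand, ran the opposite way. It had 8751, 1569 and 12793 counts, with log2 ratios of -2.67 for eKO over control (interval -2.74 to -2.59), 0.50 for eKO + rLif over control and 3.17 for eKO + rLif over eKO (3.09 to 3.25). Its exons overlap those of *4933431E20Rik* on the opposite strand, which had 246, 97 and 338 counts. Whether counting used strand was not given in the sources used here, so reads could not be told apart where they overlap. The TPM ratio of *Gstm1* to *Gstm5* was 4.04, 146 and 4.23. Within the mu class, *Gstm5* took 13.7%, 0.419% and 13.3% of the luminal TPM.

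The other mu genes were less abundant. *Gstm6* had 100, 280 and 67 counts, with an interval of 0.97 to 1.64 for eKO over control that crossed the limit and a log2 ratio of -1.92 for eKO + rLif over eKO (-2.33 to -1.53). *Gstm3* had 48, 108 and 21 counts and was lower in the library labelled eKO + rLif than in the one labelled eKO, by a log2 ratio of -2.22, but shares 28.8% of its windows with other transcripts. *Gstm4* had 526, 1099 and 479 counts and ratios of 0.88, -0.18 and -1.06, none past the limit, although the last was lower under total counts (-1.16). Including these, 3 of the 7 mu genes were higher and 1 lower for eKO over control, and 1 was higher and 5 lower for eKO + rLif over eKO. The shares of all genes were 8.08% higher and 9.15% lower in the first comparison and 7.88% and 7.77% in the second. Of the windows of *Gstm1*, 18.9% also occur in another transcript, so a part of its reads could have been assigned to a neighbour or dropped. Summed stromal markers were also highest in the library labelled eKO (1164 CPM against 743 and 813), with all 9 present in each library. Of the 9, *Hand2* and *Thy1* were highest in the library labelled eKO + rLif instead. The part of the stromal markers in the mu class values was not tested.

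**Figure D3:**
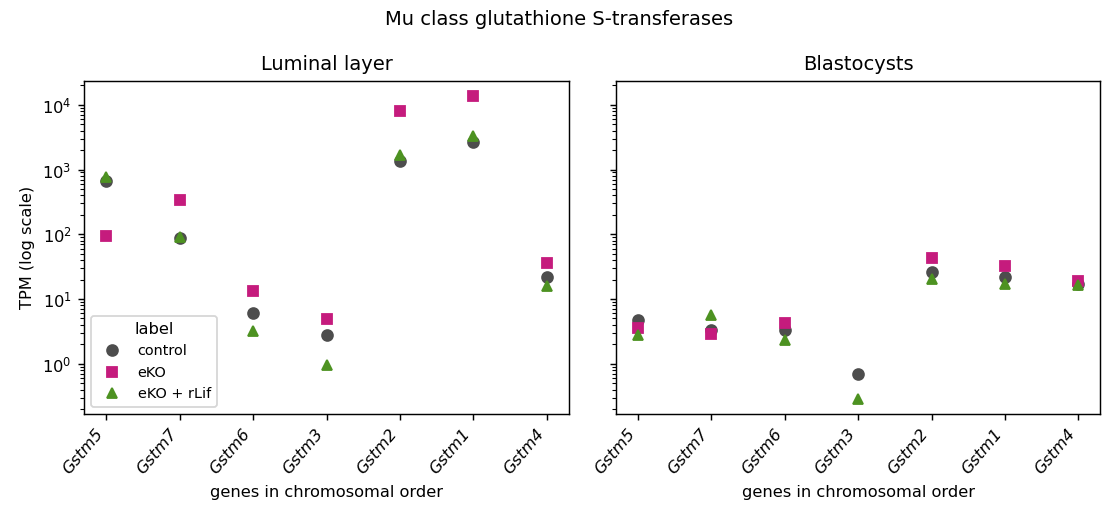
TPM on a log axis (vertical) of the 7 mu class genes in their order along chromosome 3 (horizontal), in the luminal layer (left) and in blastocysts (right), with 1 point per library (circle control, square eKO, triangle eKO + rLif). In the luminal panel the square is lowest for *Gstm5* (93 TPM against 666 and 774) and highest for the other 6, whereas in blastocysts every value is below 50 TPM; *Gstm3* at 0 in the blastocyst eKO library is not drawn.

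Promoters of the 4 mu genes past the limit for eKO over control are printed because neighbours on opposite strands ran opposite ways. They are RefSeq windows of GRCm38.p6, 250 bases before to 50 after an annotated start, written 5′ to 3′ on the gene's strand. Capitals mark a match to the antioxidant response element core TGACNNNGC, to which Nrf2 and small Maf proteins bind, or to TTCNNNGAA, the motif of Stat factors, through which Lif signals. Both motifs were searched on both strands, where TTCNNNGAA reads the same.
*Gstm5*, chr3:107895604-107895903, plus strand: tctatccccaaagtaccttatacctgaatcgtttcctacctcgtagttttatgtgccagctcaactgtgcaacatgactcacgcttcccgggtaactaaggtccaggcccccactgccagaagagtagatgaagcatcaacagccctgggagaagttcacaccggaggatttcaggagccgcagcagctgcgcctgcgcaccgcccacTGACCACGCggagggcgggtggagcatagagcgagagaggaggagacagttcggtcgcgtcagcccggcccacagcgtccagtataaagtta
*Gstm7*, chr3:107931565-107931864, minus strand: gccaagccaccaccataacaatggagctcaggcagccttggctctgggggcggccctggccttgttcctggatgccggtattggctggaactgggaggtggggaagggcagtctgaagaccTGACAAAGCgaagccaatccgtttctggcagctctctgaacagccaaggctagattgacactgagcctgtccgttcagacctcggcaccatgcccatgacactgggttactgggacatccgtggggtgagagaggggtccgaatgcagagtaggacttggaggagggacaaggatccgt
*Gstm2*, chr3:107986371-107986670, minus strand: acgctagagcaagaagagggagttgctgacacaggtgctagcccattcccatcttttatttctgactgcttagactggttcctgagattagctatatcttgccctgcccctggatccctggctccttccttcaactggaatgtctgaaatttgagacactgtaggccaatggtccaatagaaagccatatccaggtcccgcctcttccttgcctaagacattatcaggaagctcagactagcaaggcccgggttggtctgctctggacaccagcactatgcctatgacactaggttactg
*Gstm1*, chr3:108017924-108018223, minus strand: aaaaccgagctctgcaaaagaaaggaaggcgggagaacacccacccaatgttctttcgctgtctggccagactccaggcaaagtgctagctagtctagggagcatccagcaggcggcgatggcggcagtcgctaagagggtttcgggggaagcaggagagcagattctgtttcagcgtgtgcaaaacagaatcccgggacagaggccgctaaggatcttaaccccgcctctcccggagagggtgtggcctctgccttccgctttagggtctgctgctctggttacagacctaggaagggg

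*Gstm5* and *Gstm7*, which ran opposite ways, both held the TGACNNNGC core, starting 42 and 129 bases before the start. *Gstm7* has a second window, from another annotated start (107931768 to 107932067), which held neither motif and is not printed. The printed windows of *Gstm2* and *Gstm1* held neither motif. Of the 56 members, 47 had a window, with 60 windows in all. TGACNNNGC stood in 10 of the 60 (16.7%), against 12.4% of all 32851 RefSeq windows, namely those of *Gclm*, *Gsta3*, *Gstm5*, *Gstm7*, *Mgst1*, *Nfe2l2*, *Prdx1*, *Sod1*, *Srxn1* and *Txnrd1*. TTCNNNGAA stood in 9 windows (15%) of 8 genes, against 8.3% of all windows. These genes were *Gpx8*, *Gsta1*, *Gstm6*, *Mgst1*, *Mgst2*, *Sod2*, *Txn2* and *Txnrd1*. The palindromic consensus bound by progesterone and glucocorticoid receptors, searched likewise, stood in 0 member windows and in 0.475% of all windows. A match is a description of letters, and the absence of one says only that these letters are not in the window.

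Among the other S-transferases, the alpha gene *Gsta2* (chromosome 9, 78331020 to 78347145, minus strand) had the highest luminal log2 ratio of any member for eKO over control. It had 7, 380 and 11 counts, so that it was measurable almost only in the library labelled eKO, with log2 ratios of 5.58 against control (interval 4.52 to 6.90) and -4.97 for eKO + rLif over eKO (-5.98 to -4.11). It shares 49.8% of its windows with other transcripts, and its neighbour *Gsta1*, which shares 90.5%, had 0, 1 and 2 counts. *Gsta4*, which conjugates the lipid peroxidation product hydroxynonenal, had 5689, 11641 and 8182 counts, with a log2 ratio of 0.85 for eKO over control, short of the limit. *Gsta3* had 45 to 58 counts per library.

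The theta class genes *Gstt1*, *Gstt2* and *Gstt3* lie together on chromosome 10. *Gstt1* had 149, 489 and 148 counts, a log2 ratio of 1.53 for eKO over control (interval 1.26 to 1.80) and of -1.58 for eKO + rLif over eKO. *Gstt2* had 425, 1119 and 515 counts, with 1.21 for eKO over control (1.05 to 1.38), which fell inside the limit under total counts (1.14, interval 0.98 to 1.31). *Gstt3* differed from both. It had 939, 1323 and 371 counts, so that the library labelled eKO + rLif was low against the one labelled control (log2 ratio -1.38) as well as against the one labelled eKO (-1.69). *Gstt4* was at 0 in all 6 libraries, as was *Gpx6*, which allows up to 0.104 to 0.157 CPM per library at a limit of 3 counts.

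The omega enzyme *Gsto1* (chromosome 19, 47854989 to 47864788, plus strand), had 149084, 257293 and 193031 counts, which is 8903, 11972 and 9159 TPM, and it was the most abundant S-transferase in every library but the luminal one labelled eKO. Its log2 ratio for eKO over control was 0.60, short of the limit. The adjacent *Gsto2* reached 69 counts with the eKO label and had 15 with the eKO + rLif label, a log2 ratio of -2.06 (interval -2.97 to -1.24). The microsomal enzyme *Mgst1*, with 34158, 43655 and 32696 counts, the pi class gene *Gstp1*, with 2941, 3562 and 3323, and the mitochondrial and peroxisomal *Gstk1*, with 437, 571 and 739, were all within the limit. *Mgst3* had 326, 472 and 249 counts, *Mgst2* had 14 at most, and *Gstp2* had 24 to 39. Values of *Gstp1* and *Gstp2* are uncertain, since 33.7% and 54.3% of their windows are shared. Of the 21 S-transferases tested, microsomal ones included, 6 were higher and 1 lower for eKO over control, and 1 was higher and 9 lower for eKO + rLif over eKO. Over all genes 8.08% were higher and 9.15% lower in the first of these comparisons, and 7.88% and 7.77% in the second. The median log2 ratios of the S-transferases were 0.85 and -1.06.

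Genes that make and recycle glutathione stayed within a narrow band in the luminal layer. *Gclc*, the catalytic subunit of glutamate-cysteine ligase, had 1386, 1426 and 1774 counts. *Gclm*, the modifier subunit, had 1511, 1391 and 1874 counts. *Gss* had 938, 1225 and 927 counts, and *Gsr* had 2754, 3698 and 3168. All 4 genes were inside the limit in every luminal comparison, with log2 ratios from -0.31 to 0.57. Of all genes, 17.2%, 9.16% and 15.6% were past it in these comparisons, so 4 genes are too few to set apart from those shares. Ratios of the 21 S-transferases tested ran from -4.97 to 5.58, both ends being *Gsta2*, whose values are uncertain.

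Of the 7 peroxiredoxin and sulfiredoxin genes tested, 0 were past the limit for eKO over control (median log2 ratio -0.20), where 17.2% of all genes were. For eKO + rLif over eKO, 2 were higher, where 7.88% of all genes were. *Prdx3*, of mitochondria, had 8659, 8808 and 17324 counts, and *Prdx5*, found in mitochondria, peroxisomes and cytosol, had 11660, 7481 and 15697. Both were higher in the library labelled eKO + rLif than in the one labelled eKO, by log2 ratios of 1.12 (interval 1.08 to 1.15) and 1.21 (1.17 to 1.25). Under total counts *Prdx3* was within the limit, at 1.01 (0.97 to 1.05). *Prdx6*, which reduces phospholipid peroxides with glutathione, had 18071, 10919 and 18361 counts, with ratios of -0.91 for eKO over control and 0.89 for eKO + rLif over eKO, short of the limit. *Prdx4*, of the endoplasmic reticulum, had 1687, 1572 and 2798 counts and a ratio of 0.97 between the eKO libraries. *Prdx1*, the most abundant peroxiredoxin, had 50648, 50077 and 54963 counts, with log2 ratios of -0.20, 0.07 and 0.28, and *Prdx2* had 13956, 16753 and 16266. *Prdx1* has exons that overlap *AV051173*. *Srxn1*, which reactivates overoxidised peroxiredoxins, had 690, 982 and 751 counts, and *Prdx6b* reached 1 count.

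No thioredoxin or thioredoxin reductase was past the limit in a luminal comparison, where 17.2%, 9.16% and 15.6% of all genes were. *Txn1*, the cytosolic thioredoxin, had 5001, 5895 and 7090 counts. *Txn2*, the mitochondrial one, had 9115, 12237 and 13636. The reductase *Txnrd1* had 2036, 2335 and 1995 counts. *Txnrd2* had 191 to 251 counts, which are uncertain, and *Txnrd3* had 155 to 257. The 5 genes had log2 ratios from -0.77 to 0.54 over the 3 comparisons.

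Of the dismutases, only the extracellular *Sod3* (chromosome 5, 52363804 to 52369738) was past the luminal limit. It had 31, 145 and 21 counts, a low level, with a log2 ratio of 2.04 for eKO over control (interval 1.47 to 2.65) and of -2.65 for eKO + rLif over eKO (-3.38 to -1.98). *Sod3* is a gene that stromal and vascular cells can express. Its level was highest in the same library as that of the summed stromal markers (743, 1164 and 813 CPM), whose part in it was not tested. *Col3a1* was the largest of these markers (227, 501 and 320 CPM). *Hand2* (15.8, 14.3 and 21.8 CPM) and *Thy1* (17.1, 24.3 and 32.8) were highest in the library labelled eKO + rLif, and the other stromal markers in the one labelled eKO. *Sod1*, of the cytosol, had 1572, 2658 and 2628 counts, and the mitochondrial *Sod2* had 3994, 3806 and 4550. Catalase (*Cat*) had 558, 1396 and 488 counts. Its interval for eKO over control was 0.99 to 1.28, just across the limit, and its log2 ratio for eKO + rLif over eKO was -1.37 (-1.53 to -1.23).

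*Nfe2l2* and its textbook targets did not run together. *Nfe2l2* had 13083, 8660 and 12683 counts, with a log2 ratio of -0.78 for eKO over control, short of the limit. Heme oxygenase (*Hmox1*, chromosome 8, 75093618 to 75100593) had 1416, 357 and 1947 counts, with log2 ratios of -2.17 for eKO over control (interval -2.35 to -2.01) and 2.59 for eKO + rLif over eKO (2.43 to 2.76). *Nqo1*, a quinone reductase, ran the other way, with 232, 592 and 234 counts, but its intervals crossed the limit (0.94 to 1.39 for eKO over control and -1.42 to -0.98 for eKO + rLif over eKO). Under total counts the latter was past it, at -1.31. Summed immune markers, all 7 present, were at 881, 735 and 766 CPM in these libraries. *Lyz2* carried most of that sum (745, 612 and 549 CPM). *C1qa* (78, 65.1 and 122 CPM), *Cd68* (37.2, 29.6 and 62) and *Csf1r* (9.23, 8.5 and 14.6) ranked the libraries as *Hmox1* did. *Ptprc*, *Itgam*, *S100a8* and *Lyz2* did not. The part of immune cells in the *Hmox1* values was not tested. The smaller marker lists were at 70.4, 50.5 and 31.4 CPM for smooth muscle, 48.2, 69 and 92.1 CPM for endothelium, 7.17, 5.29 and 17.9 CPM for uterine glands and 0.911, 3.9 and 1.15 CPM for red cells.

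Other genes of these pathways came from lists compiled from textbook roles. Of 21 further regulators and targets of Nrf2, 1 was higher and 5 lower for eKO over control in the luminal layer, a share of 28.6% where 17.2% of all genes were past the limit. *Me1*, the cytosolic malic enzyme that yields NADPH, had 1302, 98 and 1060 counts, with a log2 ratio of -3.92. *Slc7a11*, the cystine importer that feeds glutathione synthesis, had 37, 500 and 385 counts. It was higher in both eKO libraries than in the one labelled control, by 3.57 and 3.33. *Maff* (564, 144 and 628 counts) and *Mafk* (1337, 488 and 945), small Maf partners of Nrf2, were lower for eKO over control by log2 ratios of -2.16 and -1.64. So were *Nfe2l1*, a relative of *Nfe2l2* (4964, 1855 and 3549 counts, -1.61), and *Fth1*, the ferritin heavy chain (105306, 46643 and 54469 counts, -1.36). For eKO + rLif over eKO, *Me1* and *Maff* were higher, by 3.58 and 2.27, and no gene of the list was lower.

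Of 22 genes of glutathione turnover and use, 2 were higher and 6 lower for eKO over control, 1 was higher and 0 lower for eKO + rLif over control, and 7 were higher and 1 lower for eKO + rLif over eKO. These are 36.4%, 4.55% and 36.4% of the list, where 17.2%, 9.16% and 15.6% of all genes were past the limit. *Hpgds*, a sigma class S-transferase that makes prostaglandin D2, had 556, 86 and 603 counts, and log2 ratios of -2.88 and 2.95 for the comparisons of eKO over control and of eKO + rLif over eKO. *Glrx*, glutaredoxin, had 2074, 564 and 3222 counts (-2.06 and 2.66). *Ggct*, which breaks gamma-glutamyl peptides down inside the cell, was the reverse of these, with 262, 1579 and 310 counts (2.41 and -2.21). *Ggt6*, of the gamma-glutamyltransferase family, had 7240, 5072 and 16054 counts and was the gene of the list higher for eKO + rLif over control, by 1.10 (0.93 and inside the limit under total counts). *Lap3*, *Esd* and *Glo1* were among the others lower for eKO over control, by -1.64, -1.15 and -1.08, as was *Ggt1*, with 35 counts in the library labelled control and 0 in the one labelled eKO, at least 13.3-fold lower against a limit of 3 counts in that library. For eKO + rLif over eKO, *Glo1* and *Chac1* were among the others higher, by 1.82 and 1.97. For eKO over control, *Glo1* and *Ggt1* were named after their values were seen. The peptidase *Anpep* was higher, by 1.51.

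Of 15 thioredoxin partners and methionine sulfoxide reductases, 1 was higher and 1 lower for eKO over control, 2 were lower for eKO + rLif over control, and 3 were lower for eKO + rLif over eKO. These are 13.3%, 13.3% and 20% of the list, near the 17.2%, 9.16% and 15.6% of all genes. *Txnip*, the inhibitor of thioredoxin, had 3892, 3843 and 849 counts. It stood at 154, 134 and 32.6 CPM and was lower with rLif against both other libraries, by log2 ratios of -2.24 and -2.04. *Sesn2*, a sestrin, had 620, 810 and 156 counts (-2.04 and -2.23), and its relative *Sesn1* had 299, 1142 and 203 (1.75 for eKO over control and -2.35 for eKO + rLif over eKO). *Rrm2*, the ribonucleotide reductase subunit, was lower for eKO over control by -1.48.

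In blastocysts few members differed between groups. For eKO over control, 1 of 50 members tested was past the limit (2%), *Sod3* with 10 counts in control and 0 in eKO, at least 3.42-fold lower against a limit of 3 counts in that library, where 3.15% of 14873 genes were past it and 1.86% were lower. For eKO + rLif over control, 3 were lower and 0 higher (6%), where 4.94% of genes were past the limit, 3.99% lower and 0.948% higher. For eKO + rLif over eKO, 0 members were past the limit, where 3.75% of genes were (0.914% higher). The median log2 ratios over members were -0.15, -0.06 and 0.02, and over all genes they were within 0.01 of 0.

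The 3 blastocyst genes lower with rLif than in control had different functions. *Hmox1* had 1992, 1281 and 737 counts, a log2 ratio of -1.46 (interval -1.59 to -1.34), and its eKO library lay in between. *Gsta1* had 312, 276 and 119 counts (-1.42, interval -1.74 to -1.11), with the reservation on shared windows given above. *Gpx8* had 15, 9 and 1 counts, so that its ratio of -3.93 carried an interval of -9.33 to -1.23. Summed immune markers were at 64.6, 130 and 23 CPM in these libraries, *Lyz2* foremost, and *Alas2*, the erythroid enzyme of heme synthesis, had 831, 697 and 364 counts. Both were lowest in the rLif-treated library, and their part in the *Hmox1* value was not tested. Stromal markers other than *Pdgfra* and *Thy1* were highest in the control library. Their part in the blastocyst values of *Gpx8* and *Sod3* was not tested.

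**Figure D4:**
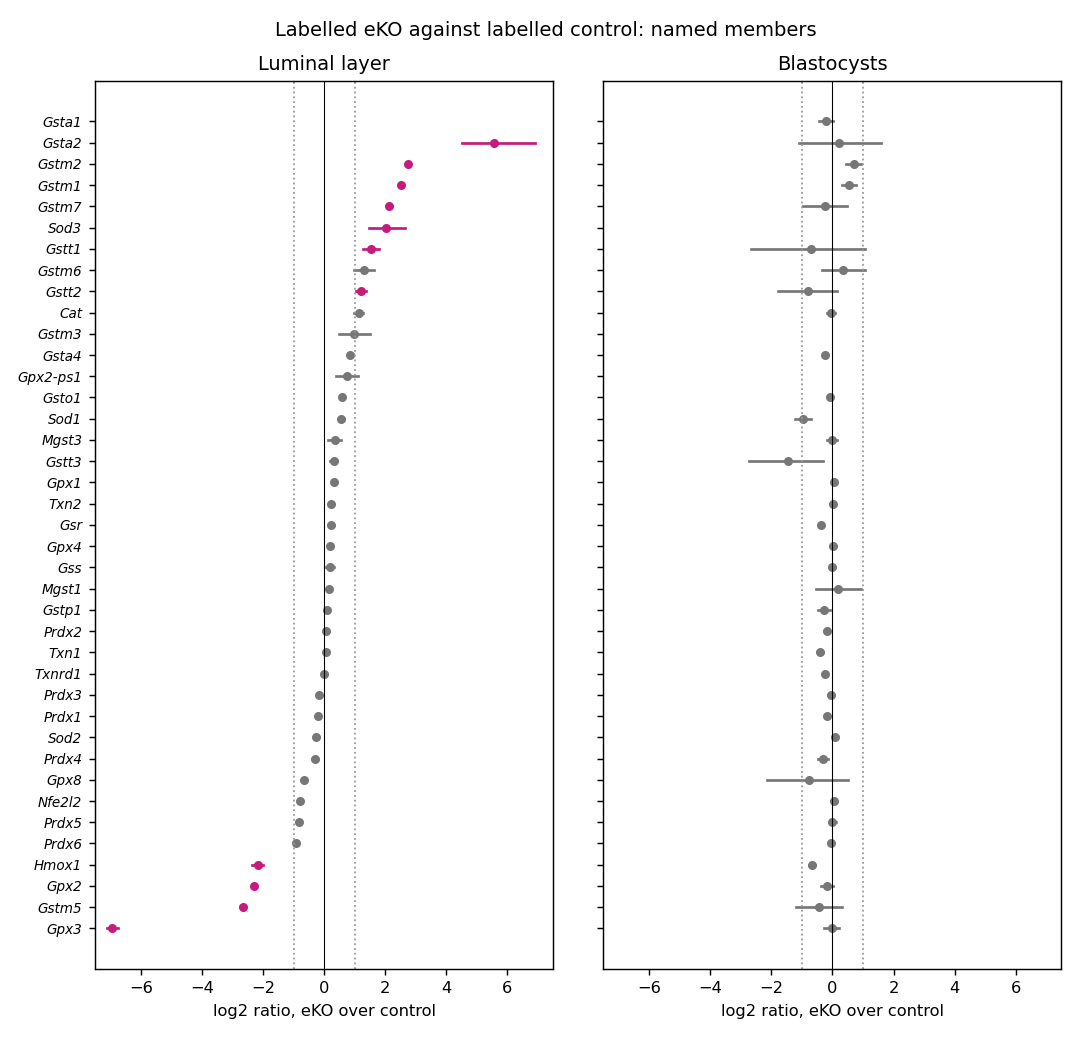
Log2 ratio of eKO over control (horizontal axis) with its 95% counting interval for the named members, in the luminal layer (left, sorted by ratio) and in blastocysts (right). Coloured points are past the 2-fold limit (dotted lines), 11 in the luminal panel and 0 in the right one, where *Sod3*, at 0 in the eKO library, is not drawn and neither are *Gstm3* at 0 there and *Gsta1* at 0 in the luminal control.

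The genes that led the luminal changes had low levels in blastocysts. *Gpx2* had 423, 383 and 517 counts there, *Gpx3* had 255, 257 and 134, *Gstm1* had 243, 363 and 191, and *Gstm2* had 235, 391 and 184. None was past the limit, and the log2 ratios for eKO over control were -0.18, -0.02, 0.54 and 0.70. For eKO + rLif over eKO they were 0.44, -0.93, -0.92 and -1.08, the last with an interval of -1.34 to -0.82. *Gclc* had 1612, 1467 and 964 counts and *Gclm* 1015, 869 and 1338, so that their TPM ratio was 0.96, 1.02 and 0.436, lower in the rLif-treated library, while each gene stayed within the limit. Glutathione synthetase had 3112, 3194 and 3900 counts. *Gpx1* had 14761, 15787 and 15352 counts, *Prdx1* had 17804, 16252 and 19061, and *Sod2* had 10762, 11673 and 11789, all within 2-fold. The 6 members *Gpx6*, *Gstt4*, *Gpx2-ps1*, *Gsto2*, *Mgst2* and *Prdx6b* fell short of 10 counts over the blastocyst libraries, with at most 5 in any library. Among the pathway lists, *Slc7a11* was higher for eKO over control (5 and 28 counts), and *Txnip* (110, 75 and 15 counts) and the Nrf2 target *Osgin1* (87, 45 and 14) were lower for eKO + rLif over control. *Txnip* was also lower than in the eKO library. *Osgin1* and *Slc7a11* were named after their values were seen, since their counts were below 100.

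Between tissues, members leaned to the luminal layer. A gene was counted as apart when its lowest TPM in the 3 libraries of a tissue was at least 2 times its highest in the other tissue. Of 53 members with at least 10 counts over the 6 libraries, 21 (39.6%) were higher in the luminal layer and 7 (13.2%) in blastocysts, where 17.9% and 30.9% of all 17081 genes were, 48.8% in all. The 3 libraries of a tissue are conditions, not replicates. The tissues were counted in separate tables, and TPM values are set beside each other as shares of each library. *Mgst1* was the furthest apart, at 2512, 2501 and 1910 TPM in the luminal layer and 3.88, 4.44 and 1.47 TPM in blastocysts, a gap of at least 430-fold between the nearest libraries. Of the genes higher in the luminal layer, *Gpx8* followed, with a gap of 198-fold, then *Gstm1* with 82.5-fold, *Gpx2-ps1* with 59.6-fold, *Gstm2* with 31.7-fold, *Gstm5* with 19.4-fold and *Gpx2* with 15.6-fold. The other 14 were *Gstm7* (15.3-fold), *Gstt1*, *Gstt2* and *Gstt3* (8.63-, 8.9- and 7.21-fold), *Gsto1* (5.23-fold), *Gpx7* (4.99-fold), *Gpx1* (3.44-fold), *Prdx2* (2.81-fold), *Sod1* (2.66-fold), *Gstk1* (2.43-fold), *Gstp1* (2.33-fold), *Txnrd3* (2.22-fold), *Prdx5* (2.2-fold) and *Nfe2l2* (2.01-fold). The last of these, the gene of Nrf2 itself, stood just past the limit.

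The 7 members higher in blastocysts were of other kinds. *Gsta1* was at 42.8, 37.3 and 15.9 TPM in blastocysts and at most 0.128 TPM in the luminal layer, where it had 2 counts at most, a gap of 124-fold, with most of its windows shared with other transcripts. *Gss*, glutathione synthetase, was at 198, 200 and 242 TPM against 27.5 to 35.6 TPM, a gap of 5.55-fold. *Sod2*, the mitochondrial dismutase, was at 332, 355 and 355 TPM against 53.8 to 72.4 TPM, a gap of 4.59-fold, with 21% of its windows shared. *Txnrd1* (2.8-fold), *Mgst3* (2.77-fold), *Gstp2* (6.24-fold) and *Gpx5* (19.4-fold, at 1.29 to 1.77 TPM) made up the rest. *Prdx1*, *Txn2*, *Gsta4* and *Gpx4* were at like levels in both tissues, *Gpx4* at 191 to 196 TPM in blastocysts and 122 to 189 TPM in the luminal layer.

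**Figure D5:**
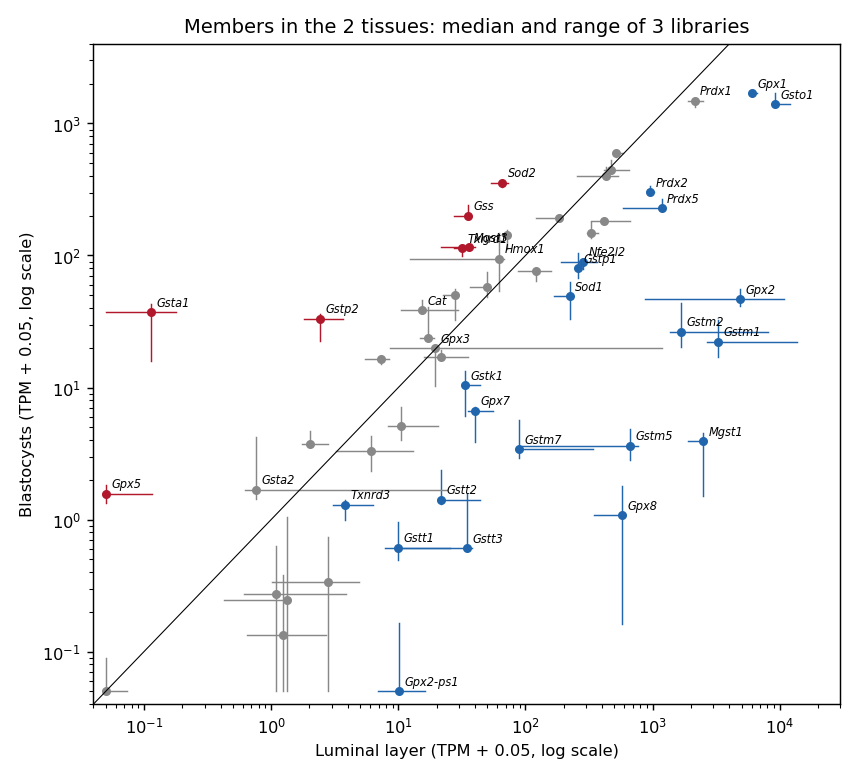
Each point is a member at its median TPM in the 3 luminal libraries (horizontal) and in the 3 blastocyst libraries (vertical), on log axes after adding 0.05, with lines over the range of the 3 libraries and a diagonal of equal level. Blue points (21) are at least 2-fold higher in the luminal layer in all libraries and red points (7) in blastocysts; the long horizontal lines of *Gpx3* (8.55 to 1177 TPM) and *Gpx2* (869 to 10736 TPM) show the spread among the luminal libraries.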

How the data were processed

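Per the labels and the study's methods, the authors microdissected the luminal layer by laser, flushed and pooled blastocysts, and sequenced SMART-seq v4 libraries in paired ends. The submitters' processing notes name HISAT2, featureCounts and Subread 2.0.0 on GRCm38/mm10. The tables deposited by the authors, 1 for each tissue, gave reads per gene as whole counts, beside the summed exon length, although the methods call them RPKM. Annotation release, strand setting and handling of reads with several hits are not given in the sources used here.

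All 6 sample columns were used, and 0 were left out. Genes with at least 10 counts over the 3 libraries of a tissue were compared after TMM scaling in edgeR 4.0.16 under R 4.3.3. Ratios of 2 libraries carry exact 95% Clopper-Pearson intervals for counting error only, since PCR reads without molecular identifiers are not independent molecules. The interval rule was run on simulated libraries that held counting error only. That run cannot show how the rule behaves under variation between animals or in amplification. TPM was computed from counts and exon length. Shared sequence is the share of a gene's 50-base exon windows also found in another GENCODE M21 transcript. Values past 20% are said to be uncertain, as are overlapping exons. Alternatives were total counts, DESeq2 1.42.0 size factors, other count minimums and limits, and edgeR's exact test with a dispersion fixed at 0.1.

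Members, lists and tests were chosen with earlier results of these data known. Values in every library were given for members past the limit with at least 100 counts in a library or with at least 100 TPM. Other genes came from fixed lists and were named when past the limit with at least 100 counts, at most 6 per list and comparison by the interval bound nearest to 0, with exceptions said in the text. RefSeq promoter windows (GRCm38.p6) were matched by symbol.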

Additional observations from a re-analysis of the deposited data

Results flagged for a closer look

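*Sod3*, the extracellular superoxide dismutase, differed in direction between tissues for eKO over control. In the luminal layer it had 31 counts in the library labelled control and 145 in the one labelled eKO, a log2 ratio of 2.04, while in blastocysts it had 10 counts in control and 0 in eKO. Each tissue had 1 library per group, so the difference between tissues was not tested. Stromal markers other than *Pdgfra* and *Thy1* were also highest in the control blastocyst library, and their part in the *Sod3* counts was not tested.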

How the results depend on the processing

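No paired analysis was possible because each group holds 1 library, and for the same reason no library could be left out of a comparison within a tissue. Of 89 alternatives to counts and medians, 71 kept the value within the limits set for a change. Scaling by total counts shifts every luminal log2 ratio by -0.07 for eKO over control, -0.18 for eKO + rLif over control and -0.11 for eKO + rLif over eKO. DESeq2 size factors kept the side of the limit for all 224 ratios of named members and total counts for 221. The exceptions under total counts, which fell inside the limit, were *Gstt2* for eKO over control (1.14), and *Gpx3* (1.20) and *Prdx3* (1.01) for eKO + rLif over eKO.

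A limit of 1.5-fold gave 22 members for luminal eKO over control, 7 for eKO + rLif over control, 2, 6 and 8 for the 3 blastocyst comparisons (eKO over control, eKO + rLif over control, eKO + rLif over eKO). A limit of 4-fold gave 1 for luminal eKO + rLif over control, 5 for luminal eKO + rLif over eKO and 0 for blastocyst eKO over control and eKO + rLif over control. edgeR's exact test with a dispersion of 0.1 gave 1 and 7 for these luminal comparisons and 0 for both blastocyst ones. A minimum of 50 counts gave 0 for blastocyst eKO over control. A minimum of 1000 counts, chosen after seeing the data, gave 11 for luminal eKO + rLif over eKO, 0 for blastocyst eKO over control and 1 for blastocyst eKO + rLif over control, with fewer genes tested. A ratio of at least 4 left 18 members apart between tissues, and leaving out each library in turn gave 28 to 31. Apart from the luminal minimum of 1000 counts, described above, shares of all genes under these settings are not given here. The counts therefore show only how the number of members moves with the setting. Summing near-identical family members was not run, since no protein table was used here. Depth limits low genes most, and members under 10 counts over 3 libraries were not compared.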

Other observations

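Genes that supply selenium to peroxidases and thioredoxin reductases, and genes that make superoxide or peroxide, were set beside the antioxidant enzymes. Of 18 selenium genes tested in the luminal layer, 3 were higher and 3 lower for eKO over control (33.3%), where 17.2% of all genes were past the limit, 8.08% higher and 9.15% lower. *Lrp2*, the receptor megalin that takes up selenoprotein P, had 4929, 12913 and 7243 counts (in order, control, eKO and eKO + rLif), a log2 ratio of 1.20 for eKO over control. *Secisbp2l*, related to the factor that reads selenocysteine codons, had 1009, 2975 and 1469 counts (1.37). *Scly*, which frees selenium from selenocysteine, had 217, 79 and 240 counts, with log2 ratios of -1.64 for eKO over control and 1.74 for eKO + rLif over eKO. The selenium-binding *Selenbp1* had 3887, 1811 and 1047 counts, and was lower than control in both eKO libraries, by log2 ratios of -1.29 and -1.94. *Dio3*, the selenoenzyme that inactivates thyroid hormone, had 109, 0 and 27 counts. *Dio1*, which activates it, had 0, 18 and 0 counts, and was named after its values were seen. In blastocysts, *Sepp1*, the gene of selenoprotein P, was lower for rLif-treated eKO than for control (44 and 152 counts, a log2 ratio of -1.82), and no other gene of the list was past the limit. Stromal markers other than *Pdgfra* and *Thy1* were highest in the same control library, and their part in the *Sepp1* value was not tested.

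Of 9 sources of superoxide and peroxide tested in the luminal layer, 1 was higher and 2 lower for eKO over control (33.3%). Of all genes, 17.2% were past the limit in that comparison, 8.08% higher and 9.15% lower. *Xdh*, xanthine oxidoreductase, had 338, 86 and 1087 counts, with log2 ratios of -2.16 for eKO over control and 3.80 for eKO + rLif over eKO (interval 3.48 to 4.14). *Noxa1*, an activator of NADPH oxidases, had 175, 666 and 365 counts (1.74 for eKO over control), and *Ncf1*, the phagocyte oxidase subunit, had 116, 22 and 57 (-2.58). In blastocysts the phagocyte oxidase genes *Cybb* (58, 134 and 38 counts) and *Ncf1* (32, 95 and 18) were lower in the rLif-treated than in the untreated eKO library, by log2 ratios of -1.81 and -2.39. Summed immune markers were at 64.6, 130 and 23 CPM in the same libraries, and their part in these values was not tested.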
